A study of Mus musculus with 8 samples.

Results

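The genes described here encode the proteins of the cytosolic ribosome. They are the genes of the array's annotation whose symbol is Rpl, Rps, Rplp or Rpsp followed by a number and at most an a or x, read only from probe sets annotated to 1 symbol. The rule found 41 genes with 92 probe sets, among 18193 genes and 45037 probe sets in all. Of the 41 genes, 22 encode proteins of the large and 19 of the small subunit. A list of 80 ribosomal proteins of the mouse holds all 41. A further 27 ribosomal protein genes are read only by probe sets that carry several symbols, often with pseudogenes, and are not described.

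The samples were 8 mammary tumours of female MMTV-PyMT mice. In this line, FVB/N-Tg(MMTV-PyVT)634Mul/J, the MMTV promoter drives the polyoma virus middle T antigen in mammary epithelium. Every animal carried this transgene. In 1 group, 4 samples came from mice given vehicle. In the other, 4 came from mice that received SKI-606 by gavage at 100 mg/kg. SKI-606, or bosutinib, inhibits the tyrosine kinases Src and Abl. The series names differentiation of the tumours by the drug as its subject. The sources used here give neither ages nor the length of treatment. RNA is described as taken per mouse, but no animals are listed. The p-values rest on the spread between these samples, in the gene itself and in the other probe sets. Part of that spread may be technical. In whole tumour RNA, fewer cells of a type and less RNA per cell cannot be told apart.

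A ribosome joins a small subunit, which reads the mRNA, to a large subunit, which forms the peptide bond. Each subunit is built on ribosomal RNA from a set of proteins that are mostly needed in equal copies, and their mRNAs are among the most abundant in growing cells. Most of these mRNAs begin with a run of pyrimidines at the very 5′ end, through which the mTOR pathway and the binding protein Larp1 set how strongly they are translated. This control acts on translation, so an array of mRNA levels does not read it.

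Runs of pyrimidines were looked for at the annotated start sites. Promoters were found in the RefSeq table of build GRCm38.p6 for 36 of the 41 genes. The genes Rpl7, Rpl8, Rps14, Rps20 and Rps29 were not matched. The sequences below run from 45 bases before to 25 bases after the annotated start, 5′ to 3′ on the gene's own strand. Capitals mark the longest run that begins with C, goes on with at least 5 more C or T, and lies within 20 bases before to 25 after the start. The first 5 are shown because their genes were bright on every array, the next 3 because their genes had the lowest or the highest differences between the groups, and Rplp0 as a bright gene with no such run.
Rpl13a (chr7:45128721-45128790, minus strand): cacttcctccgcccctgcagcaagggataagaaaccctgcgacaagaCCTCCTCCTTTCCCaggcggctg
Rps10 (chr17:27635220-27635289, minus strand): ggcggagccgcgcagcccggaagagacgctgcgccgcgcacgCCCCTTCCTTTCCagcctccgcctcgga
Rplp2 (chr7:141447606-141447675, plus strand): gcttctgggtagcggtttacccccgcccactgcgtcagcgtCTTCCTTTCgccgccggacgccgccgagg
Rpl38 (chr11:114668535-114668604, plus strand): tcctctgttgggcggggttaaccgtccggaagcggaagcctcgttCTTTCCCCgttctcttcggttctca
Rps24 (chr14:24490633-24490702, plus strand): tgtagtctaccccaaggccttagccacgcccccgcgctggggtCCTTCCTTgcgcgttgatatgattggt
Rpl14 (chr9:120571472-120571541, plus strand): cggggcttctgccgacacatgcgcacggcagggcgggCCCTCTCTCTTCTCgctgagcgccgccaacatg
Rps6 (chr4:86857343-86857412, minus strand): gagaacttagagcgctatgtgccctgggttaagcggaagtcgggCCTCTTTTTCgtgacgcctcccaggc
Rps27 (chr3:90213624-90213693, minus strand): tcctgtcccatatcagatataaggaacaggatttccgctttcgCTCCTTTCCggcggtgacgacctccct
Rplp0 (chr5:115559422-115559491, plus strand): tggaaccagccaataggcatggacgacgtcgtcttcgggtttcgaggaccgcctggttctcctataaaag

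Such a run was found in 25 of the 36 genes (69.4%), against 9573 of 27025 genes in the table (35.4%). The motif CCGGAAG, searched on both strands over 300 bases, lay in 17 of the 36 (47.2%) and in 9.93% of all genes. It holds the GGAA core that proteins of the Ets family bind. GGGCGG was found in 55.6% and 38.2%, TATAAA in 13.9% and 15.7%, and CACGTG in 11.1% and 8.09%. These are matches of letters, not mapped sites. The run was present in the bright genes Rpl13a and Rps10 and in the dim readings of Rpl14, Rps6 and Rps27 alike. It was not found near the annotated starts of the bright Rplp0, Rpl22, Rpl27, Rpl37a, Rpl41, Rps3, Rps4x, Rps7 and Rps28. The dim Rpl37 and Rps16 had none either. In Rplp0 the letters TATAAA follow the annotated start, and whether this is the start in use was not checked.

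The ribosomal protein genes were among the brightest on every array. Values below are signals on the authors' scale, recovered from the deposited ratios, and each gene is read by its probe set with the highest mean. In 32 of the 41 genes the mean signal after quantile normalization was at least 2000, and these are called bright. Their signals lay between 4460 and 21164. Their ranks lay between 2 and 266 of 45037 probe sets, the last of these at the top 0.591%. The other 9 genes, Rpl12, Rpl14, Rpl27a, Rpl37, Rpl39, Rps6, Rps16, Rps25 and Rps27, were dim. The division falls in a wide gap, with Rpl37 at a mean of 1970 just below it and Rps26 at 6480 just above. Dim readings went with the kind of probe set. Of 26 probe sets of these genes whose identifier ends in digits and _at, 21 were dim, whereas 38 of the 92 end in _x_at and can bind related sequences. Probe sets differ in how well they bind, so levels are not compared between genes. The only probe set of Rps16 with 1 symbol read between 0 and 2 on all arrays, and its difference between the groups is not described.

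Together the 92 probe sets held 5.78%, 6.36%, 8.40% and 7.80% of all signal in vehicle samples 1 to 4. In SKI-606 samples 1 to 4 they held 5.57%, 6.11%, 6.65% and 5.27%. Among the 100 brightest probe sets of an array, between 30 and 35 were of these genes, and between 62 and 72 carried a ribosomal protein symbol when those of several symbols were counted.

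Before any normalization between arrays, the bright genes moved up and down together from sample to sample. Their median signal was 7418.5, 8545, 12555.5 and 11892 in vehicle samples 1 to 4. It was 7590, 8034.5, 8941.5 and 6698 in SKI-606 samples 1 to 4. Vehicle samples 3 and 4 stood above all others, and the remaining vehicle samples lay among the SKI-606 samples, so the groups overlap. The vehicle mean was 10102.75 ± 2506.6 and the SKI-606 mean 7816 ± 933.72 (SD, n = 4 each). The difference was smaller than the SD of the vehicle group and larger than that of the SKI-606 group. The highest sample was 1.87 times the lowest. Of the 32 bright genes, 25 were highest in vehicle sample 3 and the other 7 in vehicle sample 4. In 30 of 32 these were the 2 highest samples. The lowest was SKI-606 sample 4 for 27 genes and SKI-606 sample 1 for 5.

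Other measures of the arrays moved with this level. Vehicle samples 1 to 4 had a highest signal of any probe set of 11139, 12553, 23720 and 20761. SKI-606 samples 1 to 4 had 11213, 11662, 14780 and 9746. The median of 591 other probe sets with a mean signal of at least 2000 ranged from 2668 in SKI-606 sample 4 to 3729 in vehicle sample 4. Most of these were dimmer than the bright ribosomal protein genes. Eef1a1 and Tpt1, named after their values were seen, were about as bright and ran from 7615 to 14184 and from 7636 to 15869. The less bright Eef2 ran from 5869 to 8806. The Actb ratio, that is the signal of its 3′ over that of its 5′ control probe set, which rises as RNA is degraded or as labelling falls short, was 1.77, 2.83, 3.83 and 3.78 in vehicle samples. It was 1.66, 2.08, 3.35 and 2.62 in SKI-606 samples. The 3 arrays with the highest Actb ratio were the 3 with the highest median of the bright ribosomal protein genes, namely vehicle samples 3 and 4 and SKI-606 sample 3. The Gapdh ratio lay between 0.80 and 1.06. The part of RNA quality and labelling in the level of these genes was not tested.

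**Figure D1:**
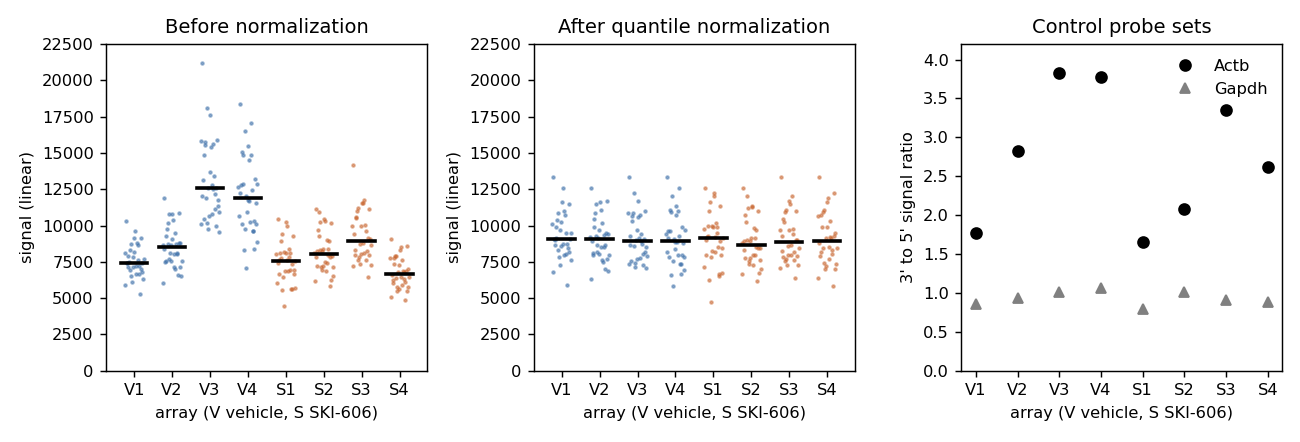
Left and middle, linear signals of the 32 bright ribosomal protein genes (1 point a gene, black line the median) on each array before and after quantile normalization; right, the 3′ to 5′ signal ratio of the control probe sets of Actb (circles) and Gapdh (triangles). Before normalization the medians run from 6698 to 12555.5, highest in V3 and V4, after it they are nearly level, and the Actb ratio is highest in the same 2 arrays.

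Quantile normalization gives every array the same set of values, so a level shared by the brightest probe sets of an array is removed by construction. After it, the log2 median of the bright genes stood at 13.14 ± 0.01 for vehicle and 13.12 ± 0.03 for SKI-606 samples. Without normalization the same medians were 13.27 ± 0.37 and 12.93 ± 0.17. With each array divided by its own median they were 13.16 ± 0.19 and 13.06 ± 0.14, and after cyclic loess 13.15 ± 0.13 and 13.07 ± 0.02 (SD, n = 4 each throughout). In each case the groups' means lay less than the SD of the vehicle group apart, except after quantile normalization, where the difference was -0.02. Without normalization and after cyclic loess they lay more than the SD of the SKI-606 group apart. An SD of samples does not measure the error of such a difference.

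The comparison asks whether the mRNAs of the ribosomal proteins differed between SKI-606 and vehicle tumours. None of the 41 genes passed the test. In limma on all 45037 probe sets after quantile normalization, with Benjamini-Hochberg adjustment at 0.05, 0 of 41 were called, with adjusted p-values from 0.559 to 1. The background was also empty, with 0% of all probe sets and of all genes called. At an unadjusted p under 0.05 in limma, 0 of 41 genes were higher, against 6.07% of all genes, and 1, Rpl14, was lower, against 4.34%. Groups that do not overlap were found in 0 of 41 genes, against 2.39% higher and 2.04% lower among all genes. Leaving out vehicle sample 1 made that count 4 and leaving out vehicle sample 2 made it 3. Leaving out any other sample gave at most 1. With 3 samples in a group the groups separate more readily, and the shares just given are for 4 against 4. The counts with a sample left out therefore have no share of all genes beside them and are not read as a result. The standard errors of the bright genes lay between 0.11 and 0.19 on the log2 scale. They partly reflect other probe sets, because limma draws each gene's spread toward that of all. Rps2, chosen after its values were seen, had an error of 0.115 though its quantile-normalized signals ran only from 9135 to 9930. Small differences could not be seen in this test with 4 samples a group.

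The size of the difference over the genes rested on the normalization. After quantile normalization the median log2 difference (SKI-606 minus vehicle, of signals plus 16) over the 41 genes was -0.02, the same as the median over all genes, with 15 genes above 0 and 26 below. Without normalization it was -0.33 against -0.05 for all genes, and all 32 bright genes were below 0, between -0.45 and -0.26. After upper quartile scaling it was -0.38 against -0.08. After median scaling it was -0.09 while all genes stood at 0.10, and after cyclic loess -0.07 against 0.00. Set against the median of all genes, the ribosomal protein genes were thus lower by 0.28 without normalization, by 0.30 after upper quartile, by 0.19 after median scaling and by 0.07 after cyclic loess, and level after quantile normalization. No normalization, median scaling and upper quartile scaling differ only by a factor per array. Their values set against all genes thus differ only through the added 16, which damps shifts of dim genes. No gene was called by limma under any of these normalizations, with 0% of all genes called as well. The counts of the 41 at an unadjusted p under 0.05 were 0 higher and at most 1 lower. Among all genes, 5.39% were higher and 4.74% lower without normalization, 4.54% and 5.41% after upper quartile scaling, 10.7% and 1.56% after median scaling, and 6.63% and 3.73% after cyclic loess.

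Read against each other, with every array divided by the median of its bright ribosomal protein genes, the 41 genes had a median of -0.01, with 19 above 0, while the median of all genes moved to 0.16. Because 32 of the 41 genes set this scale, their median near 0 is built in. The scale was chosen after the data were seen. Under it, 0 genes were called, against 0% of all genes.

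**Figure D2:**
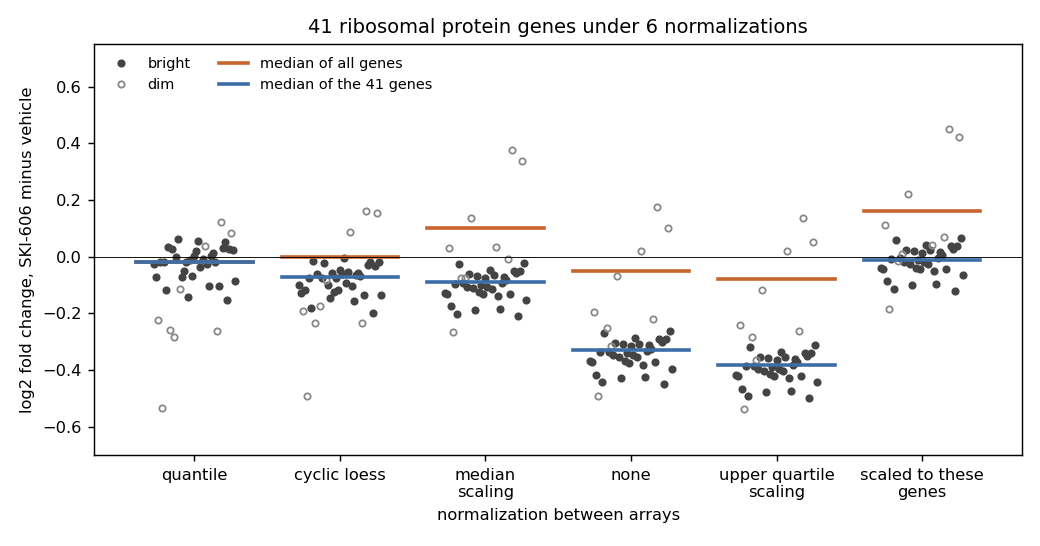
Log2 difference, SKI-606 minus vehicle, of the 41 ribosomal protein genes (filled circles bright, open circles dim) under 6 ways of putting the arrays on a common scale, with the median of the 41 genes (blue) and of all 18193 genes (orange). The median of the 41 genes runs from -0.38 to -0.01 and lies at the median of all genes only after quantile normalization.

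Squamous keratin genes were brightest in vehicle sample 3 and SKI-606 samples 1 and 4. Without these 3 samples, the median over the 41 genes was -0.03 after quantile normalization and 0 were called. The mean log2 level of 9 squamous markers was 9.58 in vehicle sample 3 and 9.80 and 9.81 in SKI-606 samples 1 and 4, and between 5.67 and 6.82 in the other 5 samples. The 6 luminal epithelial markers, which include Krt8, Krt18 and Epcam, were present in every sample, at mean log2 levels of 11.69 to 12.07 in vehicle and 11.70 to 11.94 in SKI-606 samples. The 6 fibroblast markers had mean levels of 9.79 to 10.35 and 10.29 to 11.28, and the 5 macrophage markers 8.23 to 8.99 and 8.82 to 9.98. Markers of skeletal muscle varied most widely, from 4.93 to 11.35 in vehicle and from 4.69 to 10.86 in SKI-606 samples, and adipocyte markers ran from 6.14 to 8.54 and from 6.44 to 9.67. Endothelial markers had 5.92 to 6.65 and 6.33 to 7.21, and T and NK cell markers 4.65 to 5.40 and 5.37 to 5.68. The 7 measured of 8 cell cycle markers had 8.50 to 8.98 in vehicle and 7.29 to 8.69 in SKI-606 samples. No measured marker of these lists was at 0 on any array, but several were close to it. Cd2 had a signal of 1 in vehicle sample 3 and SKI-606 samples 1 and 3, and Tnnt3 in SKI-606 sample 4. All T and NK cell markers had low signals, from 1 for Cd2 to 71 for Gzmb. A signal above 0 does not show that a marker was detected. The part of cell composition and of proliferation in the levels of the ribosomal protein genes was not tested.

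The stalk of the large subunit, a flexible arm of acidic proteins that recruits translation factors, was represented by Rplp0 and Rplp2. Rplp0, its anchor, had signals of 8153, 9067, 13693 and 11726 in vehicle and 8094, 8379, 9975 and 7296 in SKI-606 samples, here and below in the order of their numbers. The difference after quantile normalization was 0.00 ± 0.12 (log2, SE). Vehicle samples 3 and 4 were high and the groups overlapped, as in the bright genes as a whole. Rplp2 had 9119, 10822, 17642 and 15462 in vehicle and 10275, 10428, 11574 and 8301 in SKI-606 samples, and a difference of 0.02 ± 0.12, which was -0.35 without normalization. Rplp0 is often used as a reference gene. Its unnormalized signal spanned the same range of samples as the other bright genes, with a difference of -0.32 ± 0.19.

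Rpl11 forms a particle with Rpl5 and the 5S ribosomal RNA that can bind Mdm2 and so stabilise p53. Its signals were 5883, 6062, 10079 and 10629 in vehicle and 6022, 6158, 7217 and 5089 in SKI-606 samples, and the difference was -0.07 ± 0.13. The 4 measured genes of the p53 response to ribosomal stress had a median of 0.03 with 0 called. Of these, Cdkn1a, the cell cycle inhibitor that p53 induces, had a difference of 0.93 ± 0.47, which did not pass the test (adjusted p = 0.626 in limma).

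Rps6 is the small subunit protein phosphorylated by S6 kinase downstream of mTOR. Its better probe set was dim, with signals of 645, 770, 610 and 611 in vehicle and 531, 931, 694 and 717 in SKI-606 samples. The difference was 0.08 ± 0.19, and the lowest and the highest sample both belonged to the SKI-606 group. Rps3, which lines the entry of the mRNA channel, had the lowest difference of the bright genes, at -0.15 ± 0.13. Its signals were 6784, 7177, 11320 and 11581 in vehicle and 6680, 6235, 7990 and 5500 in SKI-606 samples, and the groups overlapped.

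Rps19, Rps24 and Rps26 are mutated in Diamond-Blackfan anaemia, a failure of red cell formation caused by loss of a copy of a ribosomal protein gene. Rps19 had signals of 8653, 7026, 12548 and 17085 in vehicle and 7835, 7425, 10068 and 6842 in SKI-606 samples. The difference was -0.10 ± 0.18, and vehicle sample 4 held the highest and vehicle sample 2 a value near the lowest. Rps24 had 7212, 8135, 11140 and 9612 in vehicle and 5660, 8904, 8271 and 6131 in SKI-606 samples, with a difference of -0.02 ± 0.15. Rps26 had 5299, 6592, 9960 and 8383 in vehicle and 5617, 5866, 6484 and 4867 in SKI-606 samples, with a difference of -0.10 ± 0.13. None of the 3 differed by more than its standard error.

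Several members are known for roles of their own. Rpl22, needed in the development of T cells, had signals of 7407, 7509, 13139 and 12797 in vehicle and 6632, 8252, 8313 and 6024 in SKI-606 samples, and a difference of -0.12 ± 0.13. Rpl38, which in the embryo is needed for translation of a subset of Hox mRNAs, had 8335, 10145, 15750 and 14866 in vehicle and 8969, 10910, 11013 and 7909 in SKI-606 samples. Its difference was 0.06 ± 0.12 after quantile normalization and -0.30 ± 0.23 without normalization, so the sign turned with the scale. The tiny basic protein Rpl41 had 8748, 10807, 18098 and 16521 in vehicle and 9413, 10265, 11207 and 7924 in SKI-606 samples, at -0.05 ± 0.12. Rpl39, another very small protein, at the exit tunnel, was read by a dim probe set with signals of 37, 41, 92 and 162 in vehicle and 48, 91, 41 and 107 in SKI-606 samples. Its difference of -0.11 ± 0.41 has an error that leaves its size and sign unsettled.

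Rpl13a, which can leave the ribosome to silence inflammatory mRNAs, was the brightest of the genes, at rank 2 or 3 on every array. Its brightest probe set, 1455485_x_at, had signals of 10309, 11901, 21164 and 18384 in vehicle and 10477, 11143, 14163 and 9098 in SKI-606 samples. The difference was -0.02 ± 0.12. At ranks 2 and 3 quantile normalization gave it only the values 13350 and 12616, so by construction this difference could only be small. The other probe sets of the gene did not all read alike. The probe set 1433928_a_at had signals of 4814, 4141, 4828 and 6187 in vehicle and 2759, 2991, 4694 and 1789 in SKI-606 samples, a difference of -0.67 ± 0.24. The probe set 1455001_x_at had 5779, 5772, 9254 and 10197 in vehicle and 4442, 4561, 6306 and 3429 in SKI-606 samples. It stood at -0.51 ± 0.17, and 1417608_a_at at -0.09 ± 0.14. Without normalization the probe sets stood at -0.42, -0.77, -0.71 and -0.39, in the order named. For both low probe sets SKI-606 sample 4 was the lowest and SKI-606 sample 3 lay among the vehicle samples. Neither passed the test (adjusted p = 0.560 and 0.559 in limma), and their unadjusted p-values were 0.0188 and 0.0145.

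Over all 92 probe sets, 64 stood below 0 and 28 above, with a median of -0.03 after quantile normalization. In limma 0 of 92 were called. At an unadjusted p under 0.05 they were 4 lower and 0 higher, against 3.79% lower and 4.59% higher among all probe sets. The 4 were the probe sets of Rpl13a just named, that of Rpl14, and the dim probe set 1421935_at of Rps20 (-0.52 ± 0.22). No probe set had groups that did not overlap, against 1.86% lower and 1.83% higher among all. Without normalization 81 of 92 were below 0, and 3 had all SKI-606 samples below all vehicle samples, against 2.14% of all probe sets. These were the probe set of Rpl14 and the probe sets 1428530_x_at and 1456628_x_at of Rps24, at -0.49, -0.35 and -0.53. For 1456628_x_at the signals were 5352, 5658, 7686 and 5316 in vehicle and 3084, 4763, 5048 and 3772 in SKI-606 samples.

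The 5 genes with the lowest difference were all dim. Rpl14, a large subunit protein, stood at -0.53 ± 0.19, with signals of 234, 206, 285 and 313 in vehicle and 157, 201, 204 and 155 in SKI-606 samples. Without normalization every SKI-606 sample was below every vehicle sample, the only such gene of the 41, against 2.12% of all genes. After quantile normalization SKI-606 sample 3, at 203, exceeded vehicle sample 2, at 201. It did not pass the test (unadjusted p = 0.0173, adjusted p = 0.559 in limma).

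Rpl37, a zinc-binding protein of the large subunit, had signals of 1838, 2325, 2289 and 2379 in vehicle and 1573, 2017, 1965 and 1545 in SKI-606 samples, with a difference of -0.28 ± 0.15. Rps25, which is needed for translation from some viral internal entry sites, had 95, 116, 125 and 153 in vehicle and 81, 136, 107 and 89 in SKI-606 samples, at -0.26 ± 0.20. Rpl27a had 23, 44, 66 and 36 in vehicle and 30, 32, 34 and 29 in SKI-606 samples, also at -0.26 ± 0.20. Rpl12, which sits at the base of the stalk, had 222, 224, 219 and 394 in vehicle and 157, 319, 260 and 185 in SKI-606 samples, at -0.22 ± 0.26. In all 4 the groups overlapped after quantile normalization. The last 3 values rested on single samples. Without vehicle sample 3 Rpl27a stood at -0.09, and without vehicle sample 1 at -0.43. Without vehicle sample 4 Rpl12 stood at -0.02 and Rps25 at -0.14, and without SKI-606 sample 2 at -0.39 and -0.38. Rpl12 also came closer to 0 without SKI-606 sample 1 (-0.07) or SKI-606 sample 4 (-0.13).

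At the other end, the 5 genes with the highest difference lay within their standard errors of 0. Rps27, a zinc-binding protein of the small subunit, was the highest at 0.12 ± 0.41, from dim signals of 153, 74, 69 and 146 in vehicle and 250, 79, 145 and 68 in SKI-606 samples. Rps6 and Rpl38 followed, with the values given above. Rps10, which lies near the mRNA entry, had signals of 9627, 10407, 15391 and 14528 in vehicle and 9937, 10345, 11563 and 8494 in SKI-606 samples, at 0.06 ± 0.12. Rps29 had 9110, 10840, 15898 and 13238 in vehicle and 9298, 10166, 11123 and 8581 in SKI-606 samples, at 0.05 ± 0.12. Without normalization Rps10 and Rps29 stood at -0.29 and -0.30.

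The subunits were much alike. After quantile normalization the 22 large subunit genes had a median of -0.04 with 5 above 0, and the 19 small subunit genes a median of 0.00 with 10 above 0. Among the bright genes alone the medians were -0.02 for 17 large and -0.01 for 15 small subunit genes. These are descriptions of overlapping values, and no difference between the subunits was tested.

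**Figure D3:**
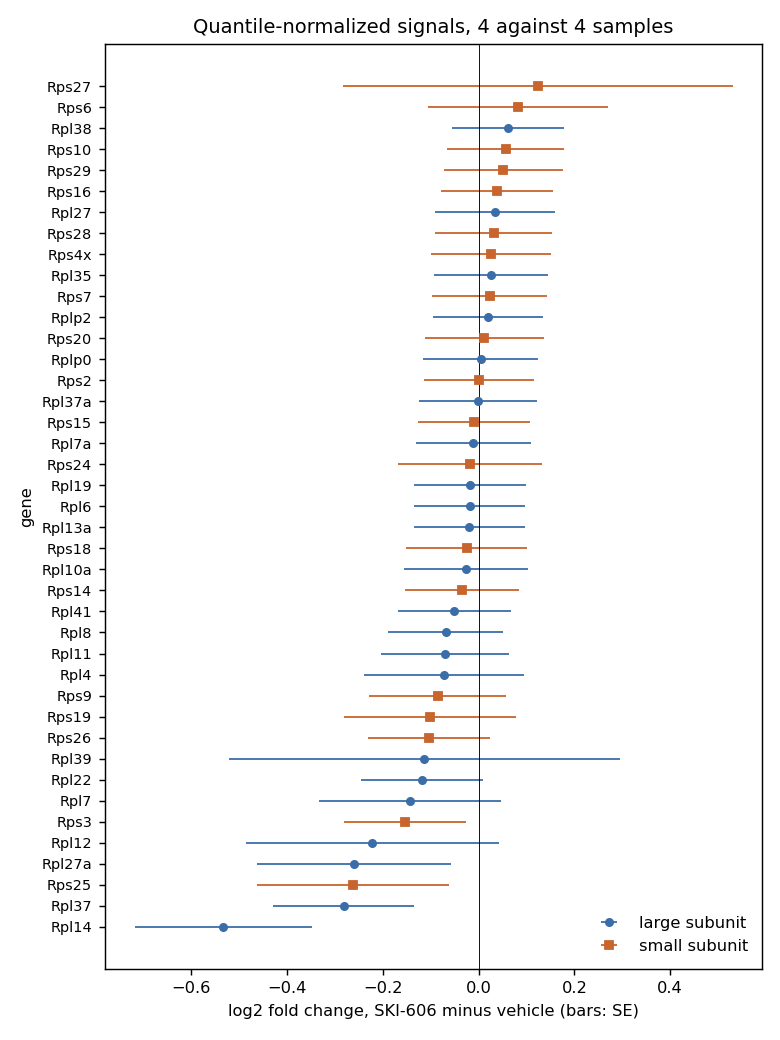
Log2 difference, SKI-606 minus vehicle, of each of the 41 genes after quantile normalization (point, blue circles large and orange squares small subunit; bars, standard error from limma). The bright genes lie between -0.15 and 0.06, and the widest bars and the lowest values, down to -0.53 for Rpl14, belong to dim genes.

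Within an array most bright genes, each read by its brightest probe set, kept nearly fixed proportions. Other bright probe sets of the same genes did not all do so. Scaled to the bright genes, the group differences of the 63 bright probe sets ran from -0.44, for 1433928_a_at of Rpl13a, to 0.18. Each signal was set against the median of the bright genes of its array, in log2, and centred on the gene's mean over the 8 arrays. The SD of these values over the 8 arrays had a median of 0.09 over the 32 genes and was at most 0.1 in 24. It was lowest for Rps2, at 0.03, a protein at the mRNA channel of the small subunit. Its only probe set, 1431766_x_at, is of the kind that can bind related sequences. The genes named next were chosen after these values were seen, apart from Rps19 and Rps24.

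The widest SD, 0.25, belonged to Rpl7, an RNA-binding protein of the large subunit. Its values were 0.10, 0.31, 0.01 and -0.37 in vehicle and -0.39, 0.16, 0.09 and 0.09 in SKI-606 samples, low in 1 sample of each group. Rpl4, whose loop lines the exit tunnel, had the same low samples, at 0.07, 0.20, 0.09 and -0.34 in vehicle and -0.28, 0.22, -0.06 and 0.10 in SKI-606 samples (SD 0.21). Rps24, with 0.10, 0.07, -0.03 and -0.17 in vehicle and -0.28, 0.29, 0.03 and 0.01 in SKI-606 samples, was also lowest in SKI-606 sample 1 and next lowest in vehicle sample 4. Rps19 varied as widely (SD 0.24) but in other samples, at 0.15, -0.36, -0.08 and 0.45 in vehicle and -0.03, -0.19, 0.10 and -0.04 in SKI-606 samples. None of these 4 patterns separated the groups.

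**Figure D4:**
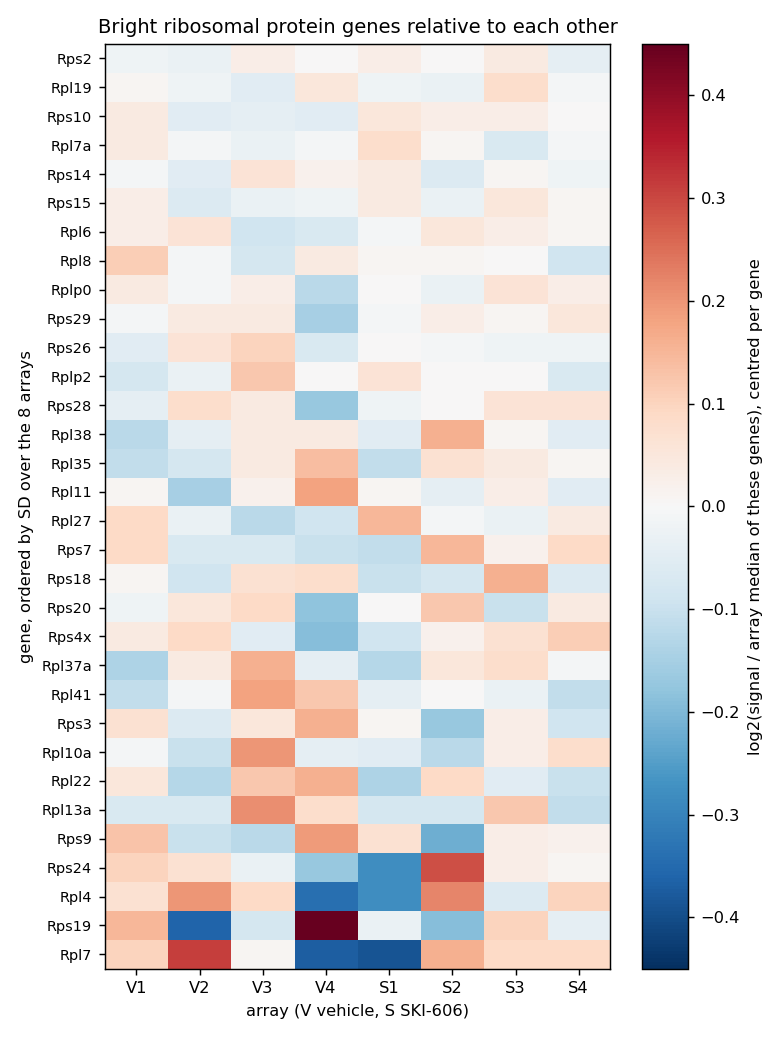
Heat map of the 32 bright genes (rows, ordered by SD) on the 8 arrays (columns): log2 of the signal over the array's median of these genes, centred per gene, red above and blue below its mean. Most rows are pale, with an SD of at most 0.1 in 24 genes, and Rpl7 and Rpl4 are lowest in V4 and S1.

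Some ribosomal protein genes are not taken by the naming rule. Of 15 such genes 9 were measured, with a median of -0.03 after quantile normalization and -0.31 without. In limma 0 were called. Rpsa, the laminin-binding protein that is also a small subunit protein, stood at -0.07, Fau, which encodes a ubiquitin-like fusion of Rps30, at -0.03, and Rps3a1 at 0.02, all with signals like those of the bright genes. These 3 were named after their values were seen. The 3 genes of smallest p in this list were all paralogs. Rpl39l, a copy of Rpl39 that is known from testis, had quantile-normalized signals of 52, 36, 46 and 57 in vehicle and 128, 64, 59 and 136 in SKI-606 samples. It was higher in all SKI-606 than in all vehicle samples, at 0.76 ± 0.26, and did not pass the test (adjusted p = 0.559 in limma). It was highest in SKI-606 samples 1 and 4. Rpl22l1, the paralog of Rpl22, had 2071, 2786, 2851 and 1640 in vehicle and 792, 3038, 1302 and 1264 in SKI-606 samples, at -0.68 ± 0.37. Rps27l, a p53 target with signals as high as the bright genes, was at -0.36 ± 0.20, outside their range.

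The genes of ribosome assembly were less bright. Of 49 measured ribosome biogenesis factors, 44 were below 0 and 5 above after quantile normalization, with a median of -0.24 beside -0.02 for all genes. In limma 0 were called, and 5 were lower at an unadjusted p under 0.05, against 4.34% of all genes. Fbl, the methyltransferase fibrillarin, had 1456, 1459, 1366 and 1643 in vehicle and 1119, 1160, 1151 and 1027 in SKI-606 samples, with every SKI-606 sample below every vehicle sample, at -0.40 ± 0.13 (adjusted p = 0.559 in limma). Rrp1b and Brix1, both of large subunit assembly, stood at -0.40 ± 0.14 and -0.71 ± 0.28. With median scaling the list had a median of 0.02 with 51.0% above 0, beside 0.10 and 64.1% for all genes. The median of the gene-centred values was -0.36 and -0.20 in SKI-606 samples 1 and 4, which had the lowest cell cycle markers, and 0.25 in SKI-606 sample 2, above 3 of the 4 vehicle samples. Without SKI-606 sample 2 the median difference was -0.37, and without vehicle sample 3 and SKI-606 samples 1 and 4 it was 0.01.

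Of 17 measured genes of RNA polymerase I and its factors, 12 were below 0, with a median of -0.19 and 0 called in limma. Taf1d, a subunit of the selectivity factor, had quantile-normalized signals of 254, 264, 328 and 211 in vehicle and 82, 187, 140 and 66 in SKI-606 samples, at -1.13 ± 0.28 (adjusted p = 0.517 in limma). The groups did not overlap, and SKI-606 samples 1 and 4 were the lowest. Of 16 measured regulators of ribosomal protein synthesis, 6 were above and 10 below 0, with a median of -0.07 and 0 called. Mycn, a Myc family gene, stood at 0.74 ± 0.22 from signals of 5 to 36. Eif4ebp2, which holds back cap-dependent initiation, stood at -0.46 ± 0.17, and Rptor at 0.42 ± 0.18.

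The list of translation elongation factors also holds Tpt1 and Eef1e1. Its 9 measured genes had a median of 0.02, with 6 above 0, after quantile normalization, and -0.21 without normalization. Of these, Eef1e1, a scaffold of tRNA synthetases, stood at -0.39 ± 0.27, Eef1b2, the exchange factor of eEF1A, at -0.14 ± 0.13, and Eef2, which moves the ribosome along the mRNA, at 0.13 ± 0.14. The 31 measured initiation factor genes had a median of -0.18, with 27 below 0, after quantile normalization, and likewise -0.21 without normalization. No difference between the kinds of factor was tested. Eif2b2 and Eif2b4, subunits of the exchange factor of eIF2, stood at -0.36 ± 0.16 and -0.32 ± 0.15, and Eif4e2 at -0.44 ± 0.20. None of the elongation and initiation factor genes was called by limma. At an unadjusted p under 0.05, 0 elongation and 2 initiation factor genes, Eif2b2 and Eif4e2, were lower, against 4.34% of all genes. After median scaling the initiation factor genes had a median of 0.03 with 51.6% above 0, beside 0.10 and 64.1% for all genes.

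The mitochondrial ribosome, a separate machine that translates the few proteins encoded by mitochondrial DNA, had the lowest median of the lists after quantile normalization. All 76 genes of its list were measured, and 75 of them stood below 0 after quantile normalization, with a median of -0.35 beside -0.02 for the cytosolic genes and for all genes. In limma 0 of 76 were called, with 21 lower at an unadjusted p under 0.05, against 4.34% of all genes, and 6 lower with groups that did not overlap, against 2.04%. Mrpl54 had quantile-normalized signals of 462, 428, 547 and 560 in vehicle and 354, 282, 331 and 218 in SKI-606 samples, at -0.74 ± 0.18 (adjusted p = 0.517 in limma). Mrpl57 stood at -0.65 ± 0.19 and Mrps35 at -0.78 ± 0.24. Under other scales the cytosolic and mitochondrial genes had like medians, at -0.33 and -0.34 without normalization, -0.38 and -0.38 after upper quartile scaling, and -0.09 and -0.10 after median scaling, where all genes stood at 0.10. After cyclic loess they stood at -0.07 and -0.30. The median of the gene-centred values was 0.08, 0.03, 0.27 and 0.32 in vehicle and -0.27, -0.04, 0.02 and -0.48 in SKI-606 samples 1 to 4. SKI-606 samples 1 and 4, which also had the lowest cell cycle markers, were the lowest, and the other SKI-606 samples lay just below the vehicle samples. Without these 2 samples and vehicle sample 3 the median was -0.13. The part of these samples' cell composition in the difference was not tested.

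**Figure D5:**
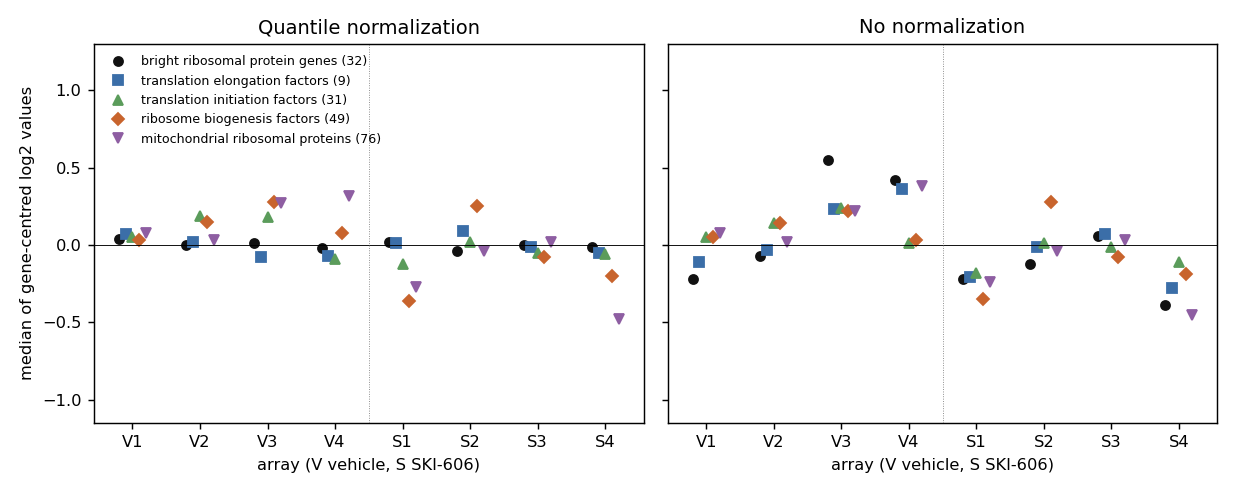
Median over the genes of each list of log2 values centred per gene, for each array, after quantile normalization (left) and without it (right); numbers in the legend are genes measured. The bright ribosomal protein genes lie between -0.04 and 0.04 on the left and between -0.39 and 0.55 on the right, whereas the mitochondrial ribosomal proteins keep a spread of -0.48 to 0.32 on the left.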

How the data were processed

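The deposited values of the 8 arrays are linear ratios, and how the authors made them is not given in the sources used here, apart from labelling per the labels' protocols as Affymetrix recommends. From the values, each deposited ratio is a signal divided by its array's median and its probe set's median over the arrays, or by a constant for dim probe sets, with a floor of 0.01. Whole-number signals were recovered from them (Python 3.11.15) and gave back 100% of 45101 probe sets. Of 5000 simulated ones 99.6% were exact. Array medians lay between 15 and 23, and trimmed means between 99.80 and 99.83. With 4 arrays a group, their number limits the precision.

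After leaving out 64 control probe sets, signals were quantile normalized, 16 was added and log2 taken, which understates changes of dim genes. limma 3.58.1 (R 4.3.3) compared the groups over all probe sets, with Benjamini-Hochberg adjustment. A gene was its probe set with the highest mean among 34945 with 1 symbol in the platform annotation, which can be old. The fit was checked on simulated data.

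The plan foresaw intensities, and its test was applied to the recovered signals. The members and lists were chosen with earlier results of these data known. Genes were named by a rule: groups that do not overlap, the 5 highest and 5 lowest differences, members fixed by role, and up to 3 of smallest unadjusted p per list. Of the genes fixed by role, Rplp1, Rpl5, Rpl35a, Rpl10, Rps27a, Rpl3 and Rpl23 had no probe set with 1 symbol. Genes outside the rule are said to be so where named. Alternatives were other normalizations, pseudocounts, filters, probe choices, left-out samples, array weights, a trend and a replicate block. Whether the replicate numbers, shared by the groups, pair the samples is not known. After quantile normalization, deviations of same-numbered samples correlated at 0.02, 0.11, -0.15 and -0.11. These values cannot show whether same-numbered samples were handled together, because that normalization removes levels shared within an array. The Actb ratio rose in the same order of samples, 1, 2, 4 and 3, in both groups.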

Additional observations from a re-analysis of the deposited data

Results flagged for a closer look

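In 86 groups of 4 samples (the 41 members in each group on the quantile-normalized log2 scale, and the median of the bright members in each group with and without normalization), 5 held a sample whose gap to the nearest other took up more of the group's range than Dixon's critical value allows. Chance gives about 1 in 20 groups, or 5%, so the number is close to what chance gives. Rpl12 stood at 8.72 in vehicle sample 4, above 7.88 to 7.92 in the others. Rpl7 stood at 12.22 in SKI-606 sample 1, below 12.78 to 12.84. The other 3 were narrow groups of bright genes. Rpl13a stood at 13.62 in vehicle sample 2, below 13.71 in the others. At ranks 2 and 3 quantile normalization gave it only the values 13350 and 12616. A single array at 1 of them is then flagged by construction, and the share expected by chance does not hold for such ties. Rpl38 stood at 13.34 in vehicle sample 1, below 13.41 to 13.42, and at 13.56 in SKI-606 sample 2, above 13.42 to 13.43.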

How the results depend on the processing

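No member was called by limma under any alternative, including a threshold of 0.1. The median over the members, -0.02, was -0.33 without normalization, -0.09 after median scaling and on the deposited ratios, -0.38 after upper quartile scaling, -0.07 after cyclic loess, and -0.06 over the 21 members with a probe set ending in digits and _at. It lay between -0.03 and -0.01 when single samples were left out. Other pseudocounts, the filter on dim probe sets, array weights, a trend and probe sets of several symbols moved it by less. With the replicate block it was -0.02 with 0 called, though whether the numbers pair the samples is not known.

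Among named genes, signs turned mostly with the scale, and the cause was not tested. Rpl38 and Rps29, both above 0, became -0.30 without normalization, -0.06 after median scaling and on the ratios, -0.35 after upper quartile scaling and -0.02 after cyclic loess. Rps10 became -0.29, -0.05 (also on the ratios) and -0.34 under the first 3 of these, -0.06 as the mean of its probe sets, -0.34 from its probe set ending in digits and _at, and -0.01 without SKI-606 samples 1 and 4 and vehicle sample 3. Rplp2 became -0.35 without normalization, -0.10 after median scaling and on the ratios, -0.39 after upper quartile scaling, -0.06 after cyclic loess and -0.02 scaled to the bright members. Rpl12 turned to 0.03 after median scaling and on the ratios, 0.11 scaled to the bright members and 0.08 without those 3 samples. Rpl39 turned to 0.14 after median scaling and with array weights, 0.18 on the ratios and 0.22 scaled to the bright members. Scaled to the bright members, Rpl37 was 0.01, Rps25 0.07 and Rps24 0.01. Without the 3 samples Rps24 was 0.12 and Rps27 -0.16, and the brighter of Rps24's 2 probe sets ending in digits and _at gave 0.34, and the other -0.43. Leaving out single samples gave -0.11 to 0.07 for Rps24, -0.21 to 0.38 for Rps27, -0.23 to 0.02 for Rps19, -0.36 to 0.25 for Rpl39 and -0.05 to 0.22 for Rps6.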
